A study of Mus musculus with 6 samples.

Results

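The imprinted *Dlk1-Dio3* locus on mouse chromosome 12 was examined in muscle stem cells (MuSCs) with and without *Sirt6*. It is represented by 6 genes chosen by symbol, the noncoding RNA genes *Meg3*, *Rian* and *Mirg* and the protein-coding genes *Dlk1*, *Rtl1* and *Dio3*. The choice was made because *Rian*, an abundant RNA, is higher in the mutant, so the difference in *Rian* and in the other members between genotypes is given as a description, with no p-value. Of the 25166 genes in the table, 5 of the 6 members had a row, and *Dio3* had no value analysed here.

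MuSCs are the PAX7-positive stem cells that lie on myofibers under the basal lamina. They were sorted from limb and trunk muscle of C57BL/6 mice, and total RNA of 3 Sirt6mKO and 3 control samples was sequenced, 1 library per sample. Sirt6mKO mice carry floxed *Sirt6* and a constitutive Cre recombinase driven by the *Pax7* promoter (*Pax7-ICNCre*), which removes exons 4 to 6 in the whole PAX7 lineage, and their controls are wild type in the labels and Cre-negative *Sirt6* fl/fl animals in the study's legend, which gives male mice of 12 weeks. The study also lists a ROSA26-YFP reporter in the Sirt6mKO cross. Its methods sort MuSCs by integrin alpha-7 with CD34, by GFP or by YFP, without naming the gate used for each genotype. The labels do not say whether each sample came from its own animal, so p-values measure the spread between these samples.

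At imprinted loci only 1 parental copy of each gene is active. In the *Dlk1-Dio3* locus the long noncoding RNAs *Meg3*, *Rian* and *Mirg*, with many small nucleolar RNAs (snoRNAs) and microRNAs, are read in 1 direction from the maternal chromosome, whereas *Dlk1*, *Rtl1* and *Dio3* are expressed from the paternal one, under control of a methylated region between *Dlk1* and *Meg3*. In muscle the locus is known for the overgrowth of callipyge sheep, for the abundance of its RNAs in quiescent MuSCs, and for MEF2 factors that act on it.

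Values are given as signal, which is the number of reads on a gene after division by the size factor of its library. Between 1267947 reads, in control replicate 3, and 3211528, in control replicate 2, lie behind the signal of a library, with 1 read worth 0.729 to 1.79 units of signal. A gene without reads has a limit of 3 reads, a signal of 2.19 to 5.38 depending on the library, which covers counting error only. Genes with a mean signal of 5 or more were tested, 14227 in all, and 223 of them were higher and 145 lower in Sirt6mKO when both an adjusted p up to 0.05 and a 2-fold difference were required (limma-trend, Benjamini-Hochberg). *Sirt6* (chr10:81621785-81627797) had a signal of 19, 20 and 13 in Sirt6mKO and 18, 17 and 20 in control libraries, with a log2 fold change of -0.10 ± 0.29 (SE, adjusted p = 0.913, limma). A value over the whole gene can show the loss of some of its exons only in part. At this low signal the genotype labels were not checked by it. The study reports efficient deletion in MuSCs by PCR.

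*Meg3* (chr12:109541001-109571726, plus strand, GRCm38) is the first long noncoding RNA of the maternal transcripts. RefSeq gives it 2 promoter windows. The one at the annotated gene start, shown because the RNAs downstream lie in the same direction, is chr12:109540746-109541045 on the plus strand of GRCm38.p6, 250 bases before to 50 after the start. Capitals mark, in order, a CCAAT box, the cAMP response element TGACGTCA and a run that holds TATAAA on both strands.
Meg3 promoter: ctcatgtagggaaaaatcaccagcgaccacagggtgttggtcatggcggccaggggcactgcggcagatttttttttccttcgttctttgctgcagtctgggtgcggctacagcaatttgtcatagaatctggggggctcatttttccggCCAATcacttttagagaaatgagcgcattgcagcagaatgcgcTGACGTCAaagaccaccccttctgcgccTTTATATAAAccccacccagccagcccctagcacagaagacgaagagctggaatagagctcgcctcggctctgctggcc
These motifs were searched on both strands. TGACGTCA starts 57 bases before the gene start and is found in 1.79% of 32851 promoter windows of the same length. TATAAA starts 29 and 25 bases before the start in overlapping matches, against 13.6% of all windows with a match, and CCAAT stands at 100 bases before it, against 37.4%. The MEF2 motif, found in 3.19% of windows, had no match in the windows of *Dlk1*, *Meg3*, *Rian*, *Mirg* or *Dio3*, and neither TGACGTCA nor TATAAA occurred in those of *Rian*, *Mirg* and *Dlk1*. The second window of *Meg3*, chr12:109545148-109545447, held no match of any of these motifs or of MEF2. The windows follow the gene starts of RefSeq. That of *Mirg*, chr12:109734731-109735030, lies inside the annotated gene, which begins at 109729764, so the sequence at that start was not searched. The window of *Rian*, chr12:109603695-109603994, spans the start at 109603808. A match or its absence is a property of these letters only.

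The signal of *Meg3* was 3080, 3199 and 1780 in Sirt6mKO replicates 1 to 3 and 2525, 1668 and 1834 in the control ones. The groups overlapped, with Sirt6mKO replicate 3 below 2 of the 3 controls. The means were 2686 ± 787 in Sirt6mKO and 2009 ± 455 in controls (SD, n = 3 each), a log2 fold change of 0.39. That value moved between 0.24 without Sirt6mKO replicate 2 and 0.67 without Sirt6mKO replicate 3, so single libraries decide its size.

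*Rian* (chr12:109603808-109661716, plus strand) is the host of many box C/D snoRNAs and one of the most abundant RNAs of these cells, at place 12 of all genes by mean signal. The 3 Sirt6mKO libraries had 6874, 6479 and 6439 and the 3 control libraries 4395, 3828 and 4587. Every Sirt6mKO library lay above every control library, and the spread within groups was small, 3.64% of the mean in Sirt6mKO and 9.24% in controls. The means of 6597 ± 240 and 4270 ± 395 (SD, n = 3 each) correspond to a log2 fold change of 0.63, or 1.55-fold, with 0.55 to 0.68 when single libraries were left out. *Rian* held 0.273 to 0.295% of all signal in Sirt6mKO and 0.164 to 0.202% in controls.

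*Mirg* (chr12:109729764-109749460, plus strand), a host of microRNAs at the far end of the noncoding transcripts, had a signal of 511, 452 and 339 in Sirt6mKO and 320, 324 and 258 in controls. The groups did not overlap, although Sirt6mKO replicate 3 came within 15 units of signal of the highest control. The means were 434 ± 87.4 and 301 ± 37.0 (SD, n = 3 each), a log2 fold change of 0.52, with 0.39 to 0.68 when single libraries were left out. Per kb of exon, the mean level in controls was 234 for *Rian*, 111 for *Meg3* and 41.2 for *Mirg*, and in Sirt6mKO it was 362, 149 and 59.5 in the same order.

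The 3 RNAs did not keep 1 ratio. Within each library the signal of *Rian* was 2.23, 2.03 and 3.62 times that of *Meg3* in Sirt6mKO and 1.74, 2.29 and 2.50 times in controls. The ratios of the groups overlapped, and Sirt6mKO replicate 3 had the highest ratio of all, being low in *Meg3* but not in *Rian*. The ratio of *Rian* to *Mirg* was 13.5, 14.3 and 19.0 in Sirt6mKO and 13.7, 11.8 and 17.8 in controls, highest in replicate 3 of both groups. The plot of the members by library shows the 5 genes side by side.

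**Figure D1:**
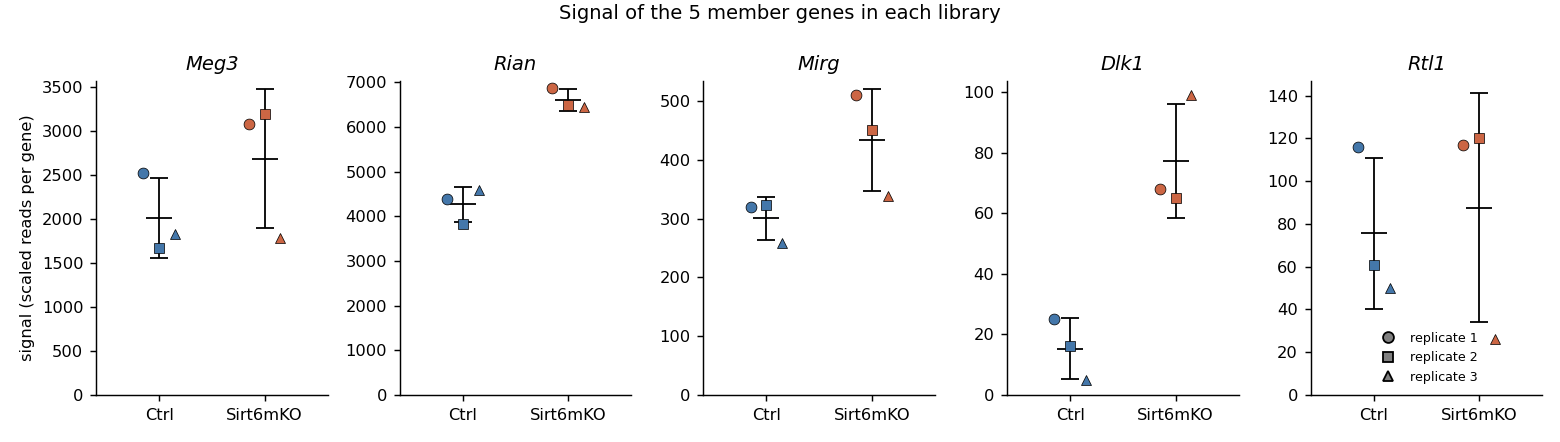
Signal (vertical axis, scaled reads per gene, from 0, own scale per panel) of the 5 member genes in 3 Ctrl and 3 Sirt6mKO libraries. Points are libraries with their replicate number as marker shape, and bars give mean and SD. *Rian*, *Mirg* and *Dlk1* are separated between the groups, and *Meg3* and *Rtl1* overlap.

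Between *Dlk1* and *Dio3* the table held 65 other rows, nearly all of them noncoding RNAs on the plus strand. They are not independent of *Rian*, since they were measured in the same libraries and neighbouring RNAs may share transcripts, and their values therefore describe how far along the locus the difference reached. Without a filter, the mean was higher in Sirt6mKO for 54 of the 65 rows and lower for 9, whereas over the whole table it was higher for 46.7% of genes. Of the 26 rows with a mean signal of 5 or more, all 26 had a log2 fold change above 0, with a median of 0.55 and a range of 0.03 to 1.35, beside a median of 0.00 over all tested genes, of which 7173 of 14227 were above 0. In 6 of the 26 every Sirt6mKO library was above every control, as in 11.1% of all tested genes. At the adjusted p alone 2 of the 26 passed, beside 2.64% of all tested genes that passed in the upward direction, and 7 had an unadjusted p under 0.05, as did 2577 of all 14227 tested genes (18.1%). None passed the 2-fold threshold as well.

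Both that passed are long transcripts just downstream of *Rian*. *Gm37899* (chr12:109668869-109677585, plus strand) had a signal of 436, 484 and 496 in Sirt6mKO and 256, 201 and 326 in controls, a log2 fold change of 0.88 ± 0.16 (SE, adjusted p = 0.00725, limma). It passed in all 15 alternative analyses. *B830012L14Rik* (chr12:109676277-109714555, plus strand, overlapping the end of *Gm37899*) had 708, 726 and 734 in Sirt6mKO and 517, 368 and 488 in controls, a log2 fold change of 0.67 ± 0.13 (SE, adjusted p = 0.0118, limma). Its call was lost without Sirt6mKO replicate 1 (adjusted p = 0.0643) or replicate 2 (adjusted p = 0.0613). Because the annotated genes overlap on 1 strand, reads shared by them were left out of both.

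The snoRNAs of the locus are box C/D snoRNAs, RNAs that guide ribose methylation of other RNAs or have no known target. A total of 9 had a row, of which 1 lies within *Rian* and 8 within the annotated *B830012L14Rik*. Their sequences are those of GENCODE M21 transcripts on GRCm38, 68 to 75 bases long, all on the plus strand. A C box TGATGA lies within 20 bases of the start in all 9 and a D box CTGA within 20 bases of the end in 8, and both are capitalized in 4 of them, shown as those with a higher signal or with groups that did not overlap: *Gm24564* (chr12:109631074-109631148), *AF357428* (chr12:109679945-109680013), *AF357341* (chr12:109681519-109681593) and *Gm23787* (chr12:109684962-109685034).
Gm24564: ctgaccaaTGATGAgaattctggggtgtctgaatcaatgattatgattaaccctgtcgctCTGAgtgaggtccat
AF357428: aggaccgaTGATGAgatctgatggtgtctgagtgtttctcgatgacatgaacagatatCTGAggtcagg
AF357341: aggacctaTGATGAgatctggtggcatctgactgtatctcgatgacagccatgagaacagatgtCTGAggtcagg
Gm23787: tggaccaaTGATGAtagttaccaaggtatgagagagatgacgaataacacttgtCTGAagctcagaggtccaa

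The summed signal of the 9 snoRNA rows was 111, 131 and 116 in Sirt6mKO and 81, 77 and 78 in controls. The sums did not overlap, and their means stood in a ratio of 1.52, near the 1.55-fold of *Rian*. All 9 rows had the higher mean in Sirt6mKO, but each is low. Of the 7 tested rows none passed the adjusted p and 2 had an unadjusted p under 0.05, beside 18.1% of all tested genes (limma). Of these 2, *Gm25224* reached the filter only through Sirt6mKO. *AF357341* had a signal of 26, 40 and 35 in Sirt6mKO and 26, 14 and 18 in controls, with control replicate 1 level with the lowest Sirt6mKO library. *Gm23787* had 27, 30 and 30 against 21, 25 and 29, a small difference with groups that overlapped. The groups of the low rows *AF357428* (14, 14 and 15 against 11, 9 and 7) and *Gm24564* (10, 9 and 11 against 6, 7 and 5) did not overlap. In the 227 snoRNA rows outside the locus, the summed means stood in a ratio of 0.970, with 15 of 28 tested rows above 0. The reads are from total RNA, and a finished snoRNA cannot be told from its precursor. Further snoRNAs in exons of *Rian* share every base with it and got no row.

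The microRNA hairpins lie in several groups along the locus, and the largest is between *Rian* and the end of *Mirg*. RefSeq lists 114 mature microRNAs of 61 genes in the locus on GRCm38.p6, and 49 of the 50 microRNA rows were matched to it. A microRNA finds its targets mainly through its seed, bases 2 to 8 from the 5′ end. Across the 114, 10 seeds are each held by 2 entries. Shown are 3 of these pairs, chosen from the stretch from *Mir379* to *Mir1193* because they include the microRNA rows described next, with the seed in capitals. The hairpins follow each other from *Mir379* to *Mir1193*, and the mature sequences lie on the plus strand at chr12:109709065-109709085 (miR-379-5p), chr12:109715716-109715735 (miR-1193-5p), chr12:109709102-109709123 (miR-379-3p), chr12:109710225-109710246 (miR-411-3p), chr12:109712361-109712381 (miR-1197-5p) and chr12:109712823-109712843 (miR-758-5p).
miR-379-5p: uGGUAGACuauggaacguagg
miR-1193-5p: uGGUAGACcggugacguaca
miR-379-3p: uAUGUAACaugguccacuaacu
miR-411-3p: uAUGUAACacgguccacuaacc
miR-1197-5p: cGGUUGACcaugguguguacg
miR-758-5p: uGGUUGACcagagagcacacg

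The 50 microRNA rows together had a signal of 256, 295 and 236 in Sirt6mKO and 195, 205 and 142 in controls. The sums did not overlap and had a ratio of means of 1.45. The mean was higher in Sirt6mKO for 41 rows and lower for 9. All 17 tested rows were above 0, none passed the adjusted p and 3 had an unadjusted p under 0.05 (17.6%, beside 18.1% of all tested genes, limma). Among the 17, *Mir136*, *Mir300* and *Mir3070b* reached the filter only through Sirt6mKO. Outside the locus, the summed means of 328 microRNA rows stood in a ratio of 0.904, and 2 of 13 tested rows were above 0.

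The microRNA rows were also summed by their place in the locus. The 34 microRNA rows between the end of *Rian* and the end of *Mirg* summed to 169, 195 and 139 in Sirt6mKO and 105, 121 and 67 in controls, a ratio of means of 1.72. Among these, *Mir1193* had 21, 25 and 17 against 12, 11 and 5, and its groups did not overlap. *Mir758* had 17, 26 and 21 against 10, 17 and 5. *Mir411*, with 23, 14 and 9 against 5, 11 and 4, overlapped like *Mir758*. Control replicate 3, where 1 read is worth 1.79, was the lowest library in all of these.

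Closer to *Meg3* the sums overlapped. The 7 rows between *Meg3* and *Rtl1* summed to 29, 38 and 25 in Sirt6mKO and 32, 33 and 23 in controls (ratio of means 1.05). The 6 rows opposite *Rtl1*, among them *Mir127* and *Mir433*, whose microRNAs are complementary to *Rtl1* RNA, summed to 32, 38 and 47 against 34, 31 and 32 (1.21). *Mir127* itself had 11, 13 and 13 against 14, 12 and 9. The 3 rows within the span of *Rian* gave 26, 24 and 25 against 24, 20 and 20 (1.17). Differences between these groups of rows were not tested.

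**Figure D2:**
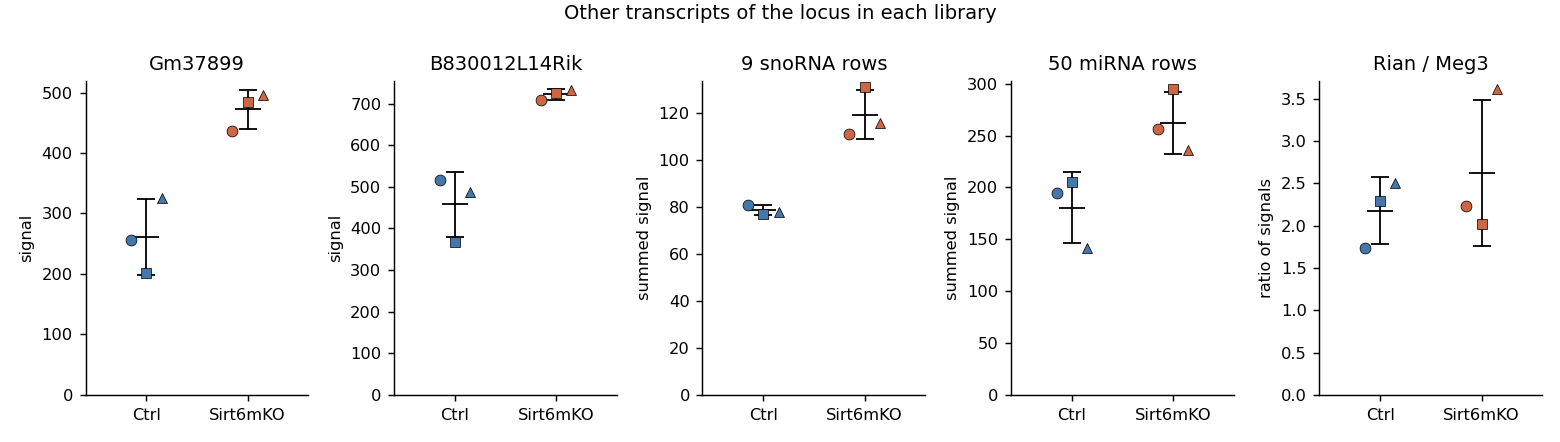
Signal or summed signal (vertical axes from 0, scaled reads) of 2 long transcripts, of the 9 snoRNA rows and of the 50 microRNA rows of the locus, and the ratio of *Rian* to *Meg3* signal, in 3 Ctrl and 3 Sirt6mKO libraries. Points are libraries (circle, square and triangle for replicates 1, 2 and 3), bars are mean and SD. The groups are separated in the first 4 panels and overlap in the ratio.

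Of the paternally expressed genes, *Dlk1* (chr12:109452823-109463336, plus strand), which encodes a transmembrane protein of the NOTCH ligand family that is known in preadipocytes and in regenerating muscle, differed most. Signals of 68, 65 and 99 were measured in Sirt6mKO libraries, against 25, 16 and 5 in control libraries. Every Sirt6mKO library was above every control, but the control values rest on few reads, about 20.3, 21.9 and 2.79 in replicates 1 to 3, the last under the limit of 3. The means were 77.3 ± 18.8 and 15.3 ± 10.0 (SD, n = 3 each), and the log2 fold change was 2.47. Leaving out control replicate 3 gave 1.87, and leaving out control replicate 1 gave 2.93. Per kb of exon, *Dlk1* stood at 13.7 in Sirt6mKO and 2.71 in controls, far under the noncoding RNAs of the locus. The members were part of the fit over all genes. By its thresholds, *Dlk1* alone of the 5 was counted as higher with both, beside 1.57% of all tested genes. At the adjusted p alone *Rian* and *Dlk1* were counted, beside 2.64%, and the groups of *Rian*, *Mirg* and *Dlk1* did not overlap, beside 11.1%. No member was lower by either rule, where 1.02% (both thresholds) and 1.88% (adjusted p alone) of all tested genes were, and none had all Sirt6mKO libraries below all controls, as 10.1% did. In both directions together, both thresholds called 2.59% of tested genes. As this contrast chose the members, these counts are no test of them, and nothing is read from them.

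Transcripts of other cell types differed between the same libraries. Of 12 fibroblast markers, all with a row, 9 were tested and all 9 were above 0, 7 with an unadjusted p under 0.05. By both thresholds 4 were called higher, beside 1.57% of all tested genes (limma). Their summed signal was 12929 to 14807 in Sirt6mKO and 8873 to 13391 in controls. *Col1a2*, a collagen chain of fibroblasts, had 782, 1299 and 1162 in Sirt6mKO and 173, 63 and 65 in controls (adjusted p = 8.51e-05, limma). *Pdgfra*, a surface marker of fibroadipogenic cells, had 14, 22 and 38 against 9, 4 and 2 (adjusted p = 0.0274, limma), and passed in 8 of 14 alternatives, the call being lost without any 1 Sirt6mKO library, without control replicate 2 or 3, and without a filter (highest adjusted p = 0.125). Its groups did not overlap. *Col3a1*, with the highest signal of the list, had 7236, 6685 and 8461 against 8595, 7237 and 5795, which overlapped. *Col1a1* was called higher at 420, 1063 and 645 against 487, 128 and 81 (adjusted p = 0.0472, limma), but its groups overlapped. *Clec3b* had 109, 22 and 78 against 1, 0 and 0. The sort left out cells with Sca1, CD45 or CD31 on their surface, and *Ly6a*, the gene for Sca1, which marks fibroadipogenic cells, was at 0, 2 and 0 against 0, 0 and 2. The fibroblast markers *Mfap5* and *Pi16* were likewise not above 4 in any library. The part of these markers in the difference of *Dlk1* was not tested.

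The other marker lists moved to unlike extents. Of 14 myofiber markers, 13 were tested and 12 were above 0. An unadjusted p under 0.05 was found for 11 of the 13, beside 18.1% of all tested genes (limma). *Ttn*, *Mylpf*, *Actn3* and *Acta1*, 4 of the 13, passed the adjusted p upwards, beside 2.64% of all tested genes. The sum was 1617 to 3333 in Sirt6mKO and 1134 to 1259 in controls. The 7 tenocyte markers summed to 296 to 1474 against 156 to 253, and 4 had an unadjusted p under 0.05. *Col12a1* passed the adjusted p, a call that held in 8 of 15 alternatives. It was lost without any 1 library other than control replicate 1, without a filter and with robust empirical Bayes. None of 3 tested endothelial, 1 tested immune and 5 tested Schwann cell markers passed, with 1, 0 and 2 at an unadjusted p under 0.05. The sums were 383 to 458 against 479 to 577 for endothelial, 38 to 79 against 36 to 65 for immune and 343 to 430 against 239 to 417 for Schwann cell markers, and the immune markers *Ptprc*, *Adgre1*, *Cd3e* and *Itgam* had no row. All 14 MuSC markers were tested and summed to 15128 to 16587 against 16998 to 19238, with 6 at an unadjusted p under 0.05. *Pax7*, the defining factor of MuSCs, was abundant in every library, at 1841, 2307 and 1810 in Sirt6mKO and 4066, 3449 and 3150 in controls, a log2 fold change of -0.84 ± 0.13 (SE, adjusted p = 0.00412, limma). *Chrdl2* fell as well. *Cd34*, a marker of 1 of the sorting gates in the methods, rose, a call that held in 11 of 15 alternatives. That call was lost without Sirt6mKO replicate 2 or 3, without control replicate 1 and without a filter. In bulk samples, fewer cells of a type and less RNA per cell cannot be told apart. Sirt6mKO mice carry the *Pax7-ICNCre* and the controls do not, so Cre and the loss of *Sirt6* cannot be told apart either. Whether the sorting gate differed between the genotypes was not tested. The part of these lists in the differences of *Rian* and *Mirg* was not tested.

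*Rtl1* (chr12:109589193-109600330, minus strand), a gene derived from a retrotransposon that is needed in the placenta and for muscle growth, had a signal of 117, 120 and 26 in Sirt6mKO and 116, 61 and 50 in controls. The groups overlapped, and Sirt6mKO replicate 3 was the lowest of all 6 libraries. The means were 87.7 ± 53.4 and 75.7 ± 35.4 (SD, n = 3 each) and the log2 fold change was 0.02, which turned to -0.35 without Sirt6mKO replicate 2 and to 0.74 without Sirt6mKO replicate 3. The 3 libraries high in *Rtl1* (Sirt6mKO replicates 1 and 2 and control replicate 1) were also the 3 highest in *Meg3*, a likeness that cuts across the genotypes. The reads of *Rtl1* and of the microRNAs opposite to it were kept apart by strand. Across the annotation, a gene within 1 exon of a well covered gene on the opposite strand had a row in 57.3% of 157 cases, and on the same strand in 0.375% of 267.

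*Dlk1* and *Rtl1*, both paternally expressed, did not keep 1 ratio either. *Dlk1* stood at 0.581, 0.542 and 3.81 times the signal of *Rtl1* in Sirt6mKO and 0.215, 0.262 and 0.10 times in controls. Every Sirt6mKO ratio was above every control ratio, and that of Sirt6mKO replicate 3 stood far above the others. *Dio3* (chr12:110279068-110281097 in GENCODE M21), the deiodinase that inactivates thyroid hormone, had no row. Its antisense neighbour *Dio3os* (chr12:110275385-110278172) had a signal of 2, 1 and 1 in Sirt6mKO and 0, 0 and 0 in controls, at or under the limit of 3 reads in every library.

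Genes beside the locus differed in both directions. Without a filter, the mean was higher in Sirt6mKO for 15 of 44 rows within 1 Mb on both sides and lower for 25. Of the 27 tested genes among them, 12 were above 0 and 15 below, with a median log2 fold change of -0.07. In 6 of the 27 every Sirt6mKO library was below every control, beside 10.1% of all tested genes. In 0 of them every Sirt6mKO library was above every control, beside 11.1%. None passed the adjusted p and 5 had an unadjusted p under 0.05 (18.5%, beside 18.1% of all tested genes, limma). A single gene, the ribosomal pseudogene *Rps19-ps6*, lower in Sirt6mKO, passed with a robust fit or without control replicate 1. The nearest tested gene on the *Dlk1* side, *Begain*, a postsynaptic scaffold gene, had 18, 17 and 9 in Sirt6mKO and 15, 8 and 4 in controls, which overlapped. *Ppp2r5c*, a regulatory subunit of protein phosphatase 2A on the *Dio3* side, had 307, 306 and 319 against 368, 409 and 380. It was lower in every Sirt6mKO library, with a log2 fold change of -0.31 ± 0.11 (SE, adjusted p = 0.136, limma). The plot along the locus shows both sides.

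**Figure D3:**
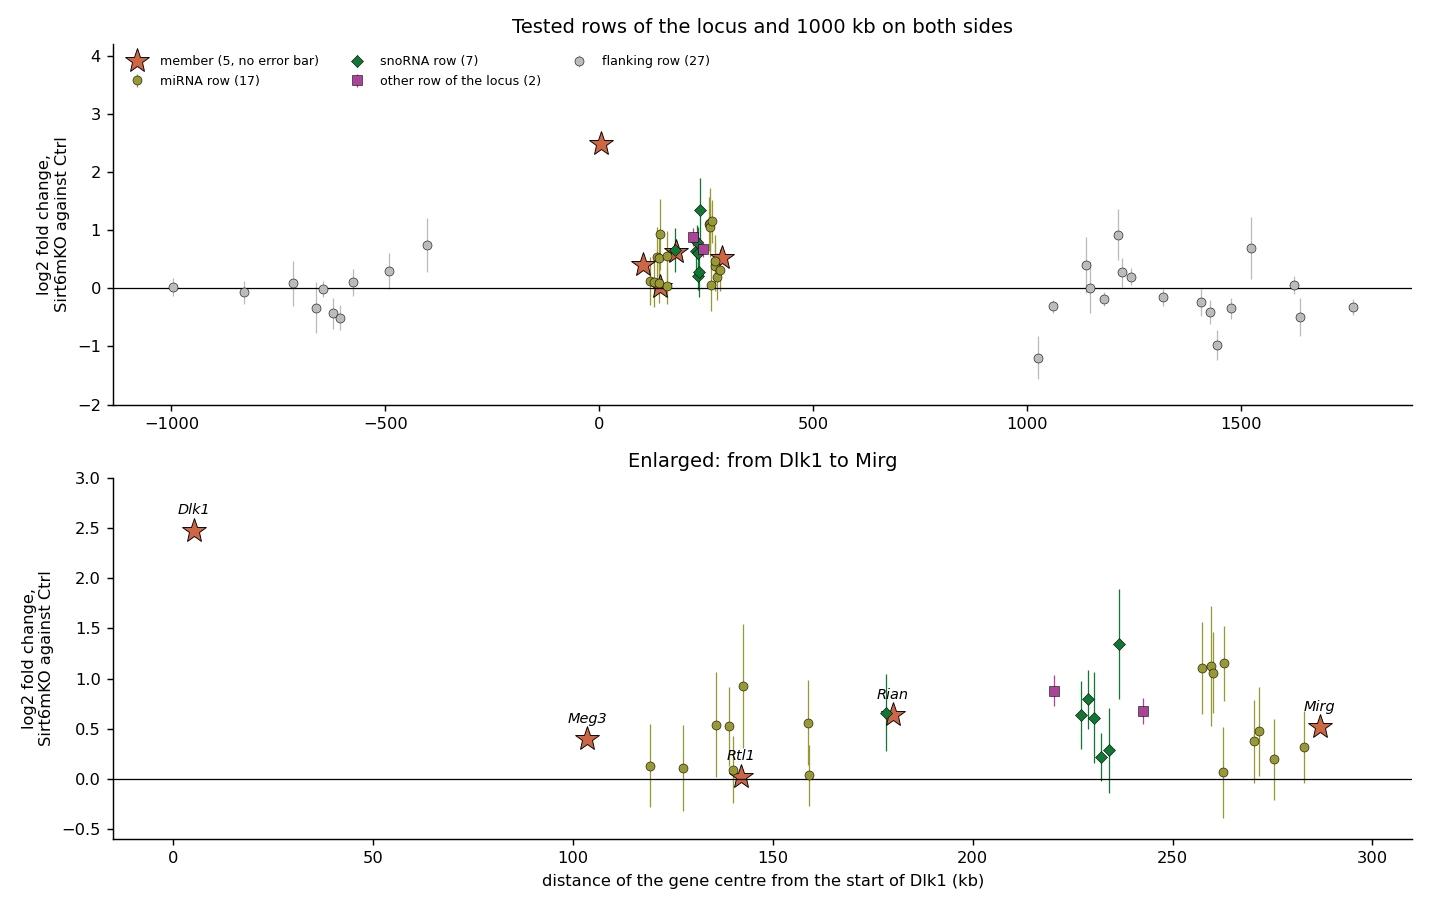
Log2 fold change of Sirt6mKO against Ctrl on log2(signal + 1) (vertical axis) by distance of the gene centre from the start of *Dlk1* in kb (horizontal axis), for the 5 members (stars, shown without error bars as a description), 26 other tested rows of the locus and 27 flanking rows, with SE as bars. All 26 rows of the locus, some of which reached the filter only through Sirt6mKO, lie above 0. The flanking rows lie on both sides of it.

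The genes most like *Rian* were sought among the 7393 genes whose mean signal reached 50, by Pearson's r of log2(signal + 1) over the 6 libraries, given as a description. With 3 libraries in each of 2 separate groups, r follows mainly the step between genotypes. The highest were *3222401L13Rik* (0.995), *Osbpl3* (0.993), *Ehbp1* (0.993), *Fip1l1* (0.993) and *Ccl11* (0.992). The most opposite were *Apbb2* (-0.996), *Nppc* (-0.996), *Gfra1* (-0.995), *Morc4* (-0.992) and *Palld* (-0.991). *B830012L14Rik*, with r = 0.968, came at place 24 and *Gm37899*, with 0.957, at place 48. The other ranked members stood lower, *Mirg* with 0.739 at place 791, *Meg3* with 0.589 at place 1377 and *Rtl1* with 0.07 at place 3344. *Dlk1*, with a mean signal of 46.3, was not ranked, and its r with *Rian* was 0.799.

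Genes that act on the locus or with its products were read from 8 lists. Of 18 tested genes that keep or read the imprint, *Zfp445* alone passed the adjusted p, a zinc finger protein that guards methylated imprints in the embryo. It had 700, 735 and 686 in Sirt6mKO and 564, 495 and 550 in controls, a log2 fold change of 0.40 ± 0.10 (SE, adjusted p = 0.0498, limma), and kept the call in 3 of 15 alternatives. The list had 5 genes above 0 and 13 below, with 5 of the 18 at an unadjusted p under 0.05. None of 10 tested PRC2 genes passed (1 at an unadjusted p under 0.05).

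Of 6 tested genes for MEF2 factors and the class IIa histone deacetylases that repress them, 2 passed. *Mef2a*, a transcription factor of muscle genes, had 399, 339 and 449 in Sirt6mKO and 240, 205 and 269 in controls (log2 fold change 0.73 ± 0.14 SE, adjusted p = 0.0108, limma). *Hdac5* had 134, 201 and 176 against 95, 88 and 84 (0.91 ± 0.16 SE, adjusted p = 0.00745, limma). The call of *Mef2a* was lost without Sirt6mKO replicate 1 and that of *Hdac5* without Sirt6mKO replicate 2. *Hdac4*, of the same class, did not pass and went the other way, at 567, 686 and 564 against 824, 781 and 773 (-0.39 ± 0.11 SE, adjusted p = 0.0699, limma). *Mef2c*, with 30, 28 and 5 against 2, 5 and 7, overlapped and did not pass. The list had a median of 0.35, with 3 genes above 0, 3 below and 4 at an unadjusted p under 0.05.

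For the small RNAs, 1 of 11 tested genes of the box C/D particle passed, *Nop58*, a core protein of these snoRNAs. It had 544, 469 and 562 in Sirt6mKO and 325, 334 and 432 in controls (log2 fold change 0.54 ± 0.13 SE, adjusted p = 0.0390, limma), and kept the call in 7 of 15 alternatives. None of 13 tested microRNA processing genes passed, with 2 at an unadjusted p under 0.05 and a median of -0.06.

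On the side of the proteins, none of 3 tested genes for NOTCH receptors and the DLK1 homolog passed (1 at an unadjusted p under 0.05), and *Dlk2* had no row. Of 15 tested thyroid hormone genes, *Dio2*, the deiodinase that activates the hormone and so the counterpart of *Dio3*, was lower by both thresholds. It had 19, 25 and 26 in Sirt6mKO and 89, 109 and 133 in controls, a log2 fold change of -2.19 ± 0.21 (SE, adjusted p = 0.00013, limma), past in all 15 alternatives. *Slc7a8*, an amino acid carrier that also takes up thyroid hormone, rose from 102, 91 and 122 to 175, 213 and 205 (0.91 ± 0.15 SE, adjusted p = 0.00468, limma), past in all 15. The median of the list was -0.07. Of 7 tested genes of the family of *Rtl1*, *Peg10*, another paternally expressed gene that is needed in the placenta, rose from 70, 87 and 68 to 134, 127 and 175 (0.94 ± 0.17 SE, adjusted p = 0.00762, limma), also in all 15 alternatives. Over all tested genes, 4.52% passed the adjusted p in either direction.

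**Figure D4:**
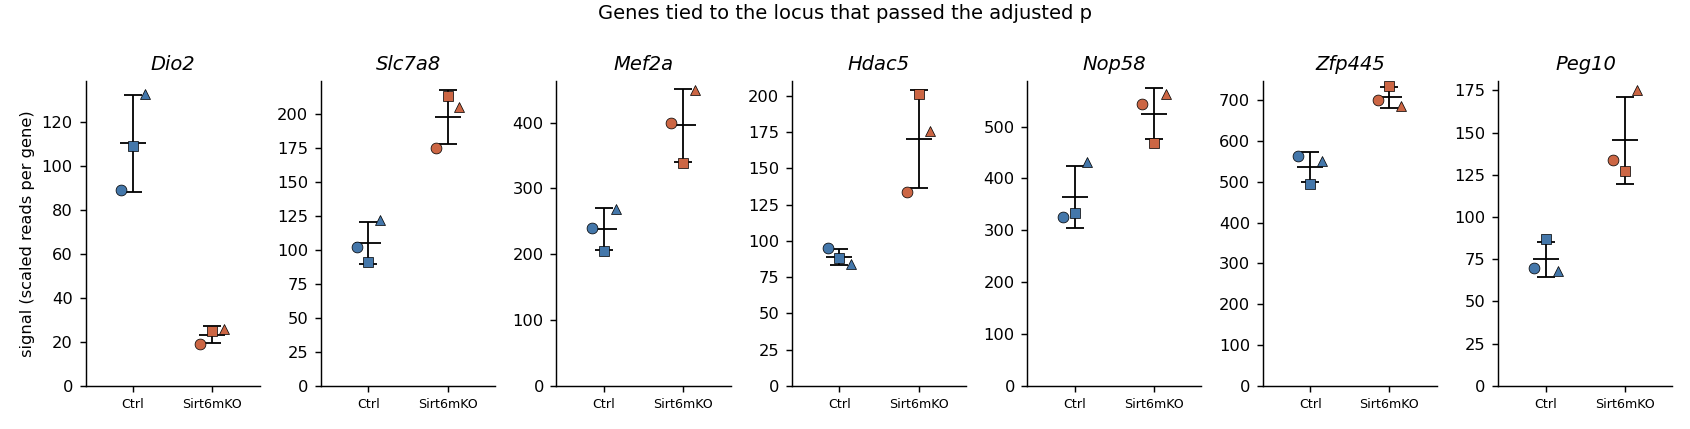
Signal (vertical axes from 0, scaled reads per gene) of the 7 genes of the 8 lists that passed the adjusted p, in 3 Ctrl and 3 Sirt6mKO libraries. Points are libraries (circle, square and triangle for replicates 1, 2 and 3), bars are mean and SD. *Dio2* is lower in Sirt6mKO and the other 6 are higher, with separated groups in all 7.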

How the data were processed

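RNA-seq of MuSCs from 3 Sirt6mKO and 3 control samples was analysed, grouped by the labels. Per the labels, libraries were made from total RNA after RiboGone depletion with the SMARTer Stranded kit (the methods name RiboMinus and an Ion kit), and the submitters' processing notes name Trimmomatic 0.39, STAR 2.7.10a, featureCounts 2.0.2, DESeq2 1.30.1 and mm10/GRCm38, with other versions in the methods. The deposited values are signal, which the authors made by dividing reads per gene by a size factor of each library (0.558 to 1.37, recovered from gaps between values) and rounding. Reads on several genes were left out by the authors.

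Here, log2(signal + 1) was fitted by genotype with limma-trend (limma 3.58.1, R 4.3.3) for genes whose mean signal was 5 or more, with Benjamini-Hochberg adjustment over all 14227. Count tests were not used on scaled values. The procedure was also run on simulated counts with 1 spread setting for all genes, which does not show how it performs on these libraries. Positions and snoRNA sequences came from GENCODE M21 (99.7% of identifiers found), promoters and microRNAs from RefSeq. Tables were handled in Python 3.11.15. The members, lists and tests were chosen with earlier results of these data known. Named genes are the members, the rows between them, the nearest flanking genes and those past the adjusted p, list genes past the adjusted p (at most 5 per list), *Sirt6*, and the 5 genes most and least like *Rian*. Some list genes that did not pass are named beside them. Individual microRNA and snoRNA rows were chosen for their signal after the values were seen. Alternatives were 3 scalings, pseudocounts of 0.1 and 5, no filter or a mean of at least 50, robust empirical Bayes, the replicate block, the adjusted p alone, and leaving out each library.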

Additional observations from a re-analysis of the deposited data

How the results depend on the processing

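The log2 fold changes of *Rian*, *Meg3*, *Mirg* and *Dlk1* stayed above 0 in every alternative that gave a value (*Dlk1* has none at a mean of at least 50), and that of *Rtl1* turned. Leaving out single libraries gave 0.55 to 0.68 for *Rian*, 0.24 to 0.67 for *Meg3*, 0.39 to 0.68 for *Mirg*, 1.87 to 2.93 for *Dlk1* and -0.35 to 0.74 for *Rtl1*. The genes past both thresholds were 223 higher and 145 lower, against 76 and 52 at a mean of at least 50, where fewer genes were tested, 376 and 267 by the adjusted p alone, and 97 to 291 and 84 to 152 without single libraries. The rows of the locus past the adjusted p were 1 to 2 without single libraries and 2 in every other alternative. Flanking rows past it were 0 to 1 without single libraries and 1 with robust empirical Bayes. The 7 genes of the lists became 4 to 6 without single libraries, 4 without Sirt6mKO replicate 1 or replicate 2. They became 5 with upper quartile scaling, with scaling to equal totals or without a filter. With recomputed size factors or a pseudocount of 0.1 they were 6, and with robust empirical Bayes 8. *Sirt6* went from -0.10 to 0.0871 without Sirt6mKO replicate 3, in a range of -0.21 to 0.0871, never past the adjusted p. The cause of these changes was not tested. Scaling moved the median of all genes by at most 0.02.

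Whether the replicate numbers pair the libraries was not settled. Same-number correlations of deviations were 0.023, 0.066 and 0.188, and those of different numbers ran from -0.129 to 0.073. Sirt6mKO replicates 2 and 3 were closest to the control of their own number, and Sirt6mKO replicate 1 to control replicate 2. With the replicate number as a block, 268 genes were higher and 167 lower, and 2 rows of the locus, 0 flanking rows and 7 list genes passed the adjusted p. Depth limits the small RNAs and *Dlk1* in controls most, where 1 read of control replicate 3 is worth 1.79 in signal.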
